A study of Danio rerio with 6 samples.

Results

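The neutrophil and macrophage genes described here are 10 genes chosen by name: the myeloid master factor gene spi1b, the neutrophil genes mpx, lyz and npsn, the leukocyte genes lcp1 and coro1a, and the macrophage genes mpeg1.1, marco, mfap4 and csf1ra. All 10 symbols occurred among the 36155 genes of the deposited tables. For the comparisons they fell into 3 neutrophil genes (mpx, lyz, npsn), 4 macrophage genes (mpeg1.1, marco, mfap4, csf1ra) and 3 genes shared by both cell types (spi1b, lcp1, coro1a). RNA was taken from dissected tails, the part of the embryo that holds the aorta-gonad-mesonephros (AGM) and the caudal hematopoietic tissue (CHT), of zebrafish of the AB* strain at 36 hours post fertilization (hpf). There were 3 libraries from prpf31-/- embryos and 3 from prpf31+/+ siblings, and every embryo came from crosses of prpf31+/- parents. The gene prpf31 encodes a pre-mRNA splicing factor of the U4/U6.U5 tri-snRNP, and the mutant line, made with CRISPR/Cas9, is predicted to give a truncated protein. The mutation is present in all cells of the animal, so the design does not separate blood cells from the rest of the tail, and each library pooled the tails of embryos genotyped from their heads (at least 30 per group by the study's methods). No label says whether the replicates were separate clutches, so the p-values measure only the spread between these libraries, which may be technical.

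Neutrophils and macrophages are the phagocytes of the zebrafish embryo. The first ones arise from the rostral blood island, spread over the yolk and into the body, and are joined by cells that form in the posterior blood island of the tail. Both descend from progenitors that carry the transcription factor Pu.1, the product of spi1b. Neutrophils then fill granules with enzymes such as myeloperoxidase, while macrophages put scavenger receptors and the receptor of colony stimulating factor 1 on their surface. In RNA from a whole tail, fewer cells of a type and less RNA per cell cannot be told apart.

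The study followed 4 of the 10 genes in whole embryos by in situ hybridization. At the age of these libraries, the paper describes similar staining of all 4 in mutants and siblings. Sudan black staining of neutrophils was also similar there. At a later age, the paper reports reduced staining of mpx, lyz and lcp1 in the CHT of mutants. Whether the staining and the tail counts differ for any of these genes was not tested. The primers from which the probes were made are shown because they define the transcript that each staining reported. Counts of the rows with the same 4 gene names are given below. No primer was placed on a row or on an alternate-contig entry, so the match rests on the name. The primers come from the study's primer list, 5′ to 3′, in lower case throughout.

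spi1b forward: tatcgaccaccaatggagtatcag

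spi1b reverse: ttctcccgtctttccgtagttt

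mpx forward: tcgggaacagatcaatactctaa

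mpx reverse: ggctcagcaacacctcctaac

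lyz forward: ctggcgtggatgtcctcgt

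lyz reverse: tgacgacgcctgtttaaaatgt

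lcp1 (l-plastin) forward: gcgcggaaaccccaaactcaac

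lcp1 (l-plastin) reverse: gcgcatacacacgagctccgatct

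The libraries held 21809870 to 23789933 counts. The targeted gene prpf31 (16:32082359-32090672, GRCz11) had 36.8, 38.2 and 38.4 CPM (counts per 1000000 of the scaled library total) in siblings and 23.4, 25.2 and 23.0 in mutants, a log2 fold change of −0.66 (SE 0.0842, edgeR adjusted p = 0.00104), so the labels matched the transcript. Of 21876 genes tested, 10.1% were called at an adjusted p under 0.05, 4.49% of all tested genes as lower and 5.58% as higher in mutants. The share of counts from mitochondrial genes was 4.19 to 4.35% in siblings and 4.78 to 5.62% in mutants, and its part in the results was not tested.

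One gene, mpx, was lower in prpf31-/- tails and passed the test, and no member was higher. Of the 10 genes, 8 had enough counts to be tested, which leaves 7 that did not pass. The 1 call among 8 stands beside 4.49% of all tested genes called lower, and was not tested for excess. Among the 8 tested genes, 7 had a log2 fold change below 0, against 50.7% of all tested genes. The libraries of both groups did not overlap, with mutants lower, for 4 of the 8 (mpx, lcp1, marco and mfap4), where 15.4% of all tested genes separated in that direction. The median log2 fold change of the 8 was −0.26, against −0.005 over all tested genes. It was −0.34 for the 2 tested neutrophil genes, −0.33 for the 4 macrophage genes and −0.08 for the 2 tested shared genes. No difference between the neutrophil and the macrophage genes was tested. None of the 8 separated with mutants higher, where 15.2% of all tested genes did.

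**Figure D1:**
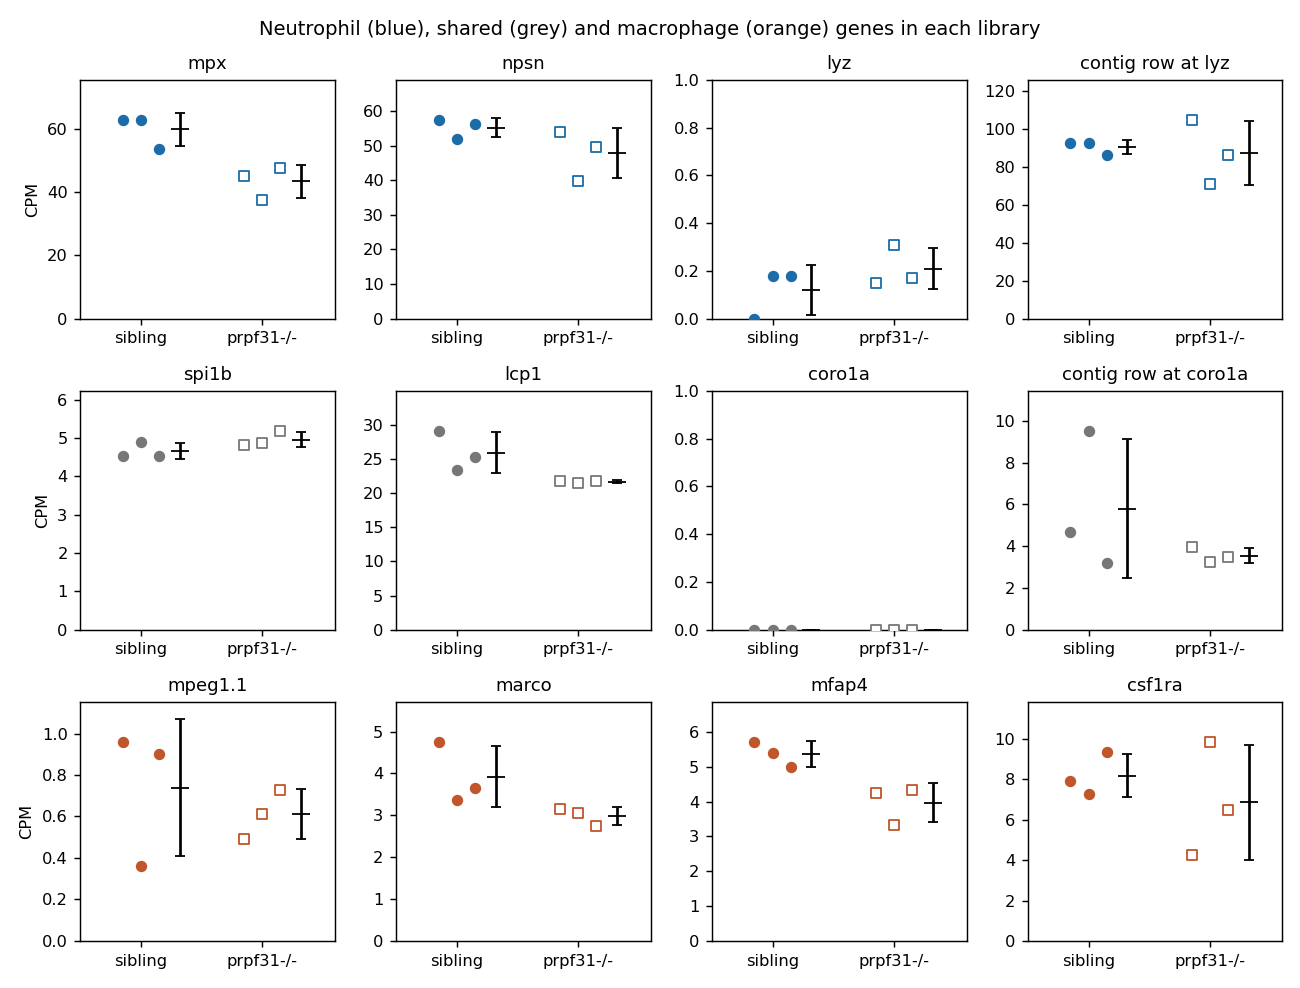
Level of each gene in CPM (counts per 1000000 of the scaled library total, linear axis from 0) in the 3 sibling libraries (filled circles) and the 3 prpf31-/- libraries (open squares), with the group mean and SD as a bar; "contig row" marks the entry on an alternate contig that lies at the place of lyz or coro1a. The groups do not overlap for mpx, lcp1, marco and mfap4, and the lyz and coro1a rows lie at or near 0.

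The neutrophil gene mpx encodes myeloperoxidase, the peroxidase of the granules that makes hypochlorous acid during the respiratory burst. It lies on the minus strand at 10:7778870-7785945 (ENSDARG00000019521). It had 1445, 1401 and 1195 counts in siblings and 916, 859 and 1110 in mutants. After scaling these were 63.0, 62.9 and 53.7 CPM in siblings and 45.1, 37.6 and 47.6 CPM in mutants. The lowest sibling library stood above the highest mutant library, and the mutant mean was 72.5% of the sibling mean. Its log2 fold change was −0.46 (SE 0.107, 95% interval −0.70 to −0.23, edgeR adjusted p = 0.0232), which is 61.5 to 85.5% of the sibling level. The call was lost without sibling replicate 1 (log2 fold change −0.43, adjusted p = 0.102) and without sibling replicate 2 (−0.43, adjusted p = 0.0908), the 2 libraries with the most mpx.

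The gene npsn encodes nephrosin, a metalloprotease of the astacin family that is made by neutrophils and lies at 7:38653481-38659477 (ENSDARG00000010423). It had 57.5, 52.0 and 56.2 CPM in siblings and 54.0, 39.8 and 49.6 CPM in mutants. Mutant replicate 1 lay within the sibling range and mutant replicates 2 and 3 lay below it, so the groups overlapped. The log2 fold change of −0.21 (95% interval −0.46 to 0.04) did not pass the test (edgeR adjusted p = 0.279). The interval covers 72.8 to 103% of the sibling level and overlaps that of mpx, 61.5 to 85.5%. Whether npsn differed from mpx in its response was not tested.

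The gene lyz encodes lysozyme C, which cleaves the peptidoglycan of bacterial walls and is one of the most used neutrophil markers in zebrafish embryos. Its row in the tables (ENSDARG00000057789, 24:24035863-24038800) held 0, 4 and 4 counts in siblings and 3, 7 and 4 in mutants. This was too few for a test, and the row says nothing about lysozyme in these tails. One reason to doubt it as a level is a second entry without a symbol, on the alternate contig CHR_ALT_CTG24_2_3 at 24036188-24039170. The tables describe that entry as a member of the C-type lysozyme/alpha-lactalbumin family, and it shares 2613 bases and the strand with lyz. It had 2121, 2062 and 1918 counts in siblings and 2132, 1616 and 2009 in mutants. No sequence of either entry was compared, so the link to lyz rests on position and family. The gene abcc13 also overlaps lyz on the same strand, by 2606 bases, and its part in the low counts of lyz was not tested.

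The alternate-contig entry at lyz did not separate the groups. It had 92.5, 92.6 and 86.2 CPM in siblings and 105, 70.8 and 86.2 CPM in mutants. Mutant replicate 1 was the highest library and mutant replicate 2 the lowest of all. On the log2 scale the difference was −0.05 (95% interval −0.33 to 0.23, edgeR adjusted p = 0.846), which covers 79.6 to 117% of the sibling level. It ran from −0.21 without mutant replicate 1 to 0.08 without mutant replicate 2, so its direction rests on single libraries. Whether it differed from mpx in its response was not tested. Summed over the rows of mpx, lyz and npsn, the level was 110 to 121 CPM in siblings and 77.8 to 99.2 CPM in mutants. Almost all of this sum came from mpx and npsn, and mpx was already called on its own. With the alternate-contig entry included, the sums were 196 to 213 CPM in siblings and 149 to 204 CPM in mutants, and the groups overlapped.

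The rows of lyz and coro1a were not alone. The tables hold 2818 entries on alternate contigs, none of which has a symbol, and these took 5.70 to 6.35% of the counts of each library. By position, 1277 of them matched a gene on the same strand of the main chromosome (shared bases at least 0.5 of the joint span), which gave 1224 genes with such a copy. Of these genes, which could be of any biotype, 27.3% had under 10 counts summed over 6 libraries. Of the protein-coding genes on chromosomes without such a copy, 17.6% did. The sets differ in the biotypes they admit, so the shares are not like for like. Among the members, lyz and coro1a had such an entry and the other 8 had none matched by this rule.

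Of the genes shared by both cell types, spi1b had overlapping levels in both groups and did not pass the test. Its product Pu.1 commits progenitors to the myeloid fate and stays on in neutrophils and macrophages. The gene (ENSDARG00000000767, 7:32644673-32659353) had 104, 109 and 101 counts in siblings and 98, 111 and 121 in mutants. Scaled levels were 4.54, 4.90 and 4.54 CPM in siblings and 4.82, 4.86 and 5.19 CPM in mutants. It had a log2 fold change of 0.09 (95% interval −0.28 to 0.46, edgeR adjusted p = 0.789), which leaves room for 82.5 to 138% of the sibling level. The spread of spi1b between libraries of a group (coefficient of variation 4.43% in siblings and 4.08% in mutants) was smaller than counting alone gives at this depth (9.77 and 9.53%). A neighbour on the opposite strand, si:ch73-314g15.3, overlaps spi1b by 528 bases, and since the library kit does not mark strand, reads from that stretch cannot be told apart.

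The gene lcp1 encodes L-plastin, the actin-bundling protein of leukocytes, which marks macrophages and, at a lower level, neutrophils. It lies at 9:56251000-56272465 (ENSDARG00000023188). It had 667, 519 and 563 counts in siblings and 442, 490 and 507 in mutants, or 29.1, 23.3 and 25.3 CPM against 21.8, 21.5 and 21.8 CPM. All 3 mutant libraries lay below all 3 sibling libraries, and the mutants differed from each other by less than counting error (coefficient of variation 0.783%, against 4.57% from counting). The log2 fold change of −0.26 (95% interval −0.49 to −0.03) had an unadjusted p of 0.0329 and did not pass over all genes (edgeR adjusted p = 0.155). Mutant levels reached 83.6% of the sibling mean.

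The gene coro1a encodes coronin 1A, an actin regulator of leukocytes that is used as a marker of both cell types. Its row (ENSDARG00000054610, 3:30926364-30941362) was 0 in all 6 libraries, and the row gives no level and no fold change. An entry on the alternate contig CHR_ALT_CTG3_1_19 at 30926364-30941319, described by WD40 and DUF1899 domains, shares 14956 bases with it (0.997 of their joint span). That entry had 107, 212 and 71 counts in siblings and 80, 74 and 81 in mutants. Sibling replicate 2 stood far above the others with 9.52 CPM, where the other 5 libraries had 3.19 to 4.67 CPM. The log2 fold change of −0.71 (95% interval −1.49 to 0.07, edgeR adjusted p = 0.247) shrank to −0.15 without that library (adjusted p = 0.806).

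All 4 macrophage genes had log2 fold changes below 0 and none passed the test. With edgeR 1 of the 4, mfap4, had an unadjusted p under 0.05, where 12.1% of all tested genes had one and were lower, and DESeq2 called none. Their summed level was 16.4 to 19.3 CPM in siblings and 12.1 to 16.9 CPM in mutants, and the sums overlapped.

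The gene mpeg1.1 encodes a perforin-like protein that kills engulfed bacteria, and its promoter drives most macrophage reporter lines. It lies at 8:29710110-29713621 (ENSDARG00000055290). It had 22, 8 and 20 counts in siblings and 10, 14 and 17 in mutants, and every mutant library lay within the sibling range. The 95% interval of its log2 fold change of −0.27 spanned −1.26 to 0.72 (edgeR adjusted p = 0.766), which covers 41.7 to 165% of the sibling level. Its paralog mpeg1.2 had 121, 143 and 131 counts in siblings and 103, 129 and 135 in mutants (log2 fold change −0.09, edgeR adjusted p = 0.791), while mpeg1.3 had 0 counts in all 6 libraries.

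The gene marco encodes a scavenger receptor with a collagen-like stalk that binds bacteria. It lies at 9:795609-813693 (ENSDARG00000059294). It had 109, 75 and 81 counts in siblings and 64, 70 and 64 in mutants, or 4.76, 3.37 and 3.64 CPM against 3.15, 3.07 and 2.75 CPM. The groups did not overlap, but the gap between sibling replicate 2 and mutant replicate 1 was narrow. A log2 fold change of −0.39 (95% interval −0.87 to 0.08) did not pass the test (unadjusted p = 0.0937, edgeR adjusted p = 0.289).

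The gene mfap4, named for a microfibril-associated glycoprotein, belongs to a family with further entries on chromosome 1, whose sequences were not compared. In zebrafish embryos the mfap4 promoter is active in macrophages. The row named mfap4 (ENSDARG00000090783, 1:59090583-59092056) had 131, 120 and 111 counts in siblings and 86, 76 and 101 in mutants. All mutant libraries (4.23, 3.33 and 4.33 CPM) lay below all sibling libraries (5.72, 5.39 and 4.99 CPM). The log2 fold change was −0.44 (95% interval −0.85 to −0.03), with an unadjusted p of 0.0397 and an edgeR adjusted p of 0.174.

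Which copy of mfap4 the reads came from is uncertain. Of the 5 further rows that the tables name "MFAP4 (1 of many)", 1 lies on the opposite strand across all 1474 bases of mfap4. A second such row (ENSDARG00000090557) went the other way, with 94, 109 and 141 counts in siblings and 112, 174 and 358 in mutants. Its log2 fold change of 0.90 did not pass (edgeR adjusted p = 0.133), and it passed without mutant replicate 1 (adjusted p = 0.0331) and with DESeq2 (adjusted p = 0.0439). The gene beside mfap4 on the same strand, zgc:173915, was looked at after the values were seen. It had 178, 194 and 257 counts in siblings and 117, 104 and 133 in mutants, a log2 fold change of −0.81 (SE 0.192, edgeR adjusted p = 0.0272).

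The gene csf1ra encodes a receptor for colony stimulating factor 1, which keeps macrophages alive and moving, and in zebrafish it is also used by the yellow pigment cells (xanthophores). It lies at 14:3143337-3180947 (ENSDARG00000102986). It had 181, 162 and 208 counts in siblings and 86, 225 and 151 in mutants, or 7.90, 7.28 and 9.35 CPM against 4.23, 9.86 and 6.48 CPM. The mutant libraries included both the lowest and the highest value of all 6. The coefficient of variation was 41.3% in mutants, and the log2 fold change of −0.25 (95% interval −0.85 to 0.35, edgeR adjusted p = 0.623) moved to −0.60 without mutant replicate 2 and to −0.01 without mutant replicate 1. Of 5 pigment-cell genes looked at after the values were seen, 4 were, like csf1ra, lowest of all 6 libraries in mutant replicate 1: xdh at 27.5 CPM, aox5 at 78.7 CPM, pax7a at 0.591 CPM and pax7b at 9.26 CPM. The fifth, gch2, was highest there at 731 CPM against 560 to 648 CPM in the other 5 libraries. The value of pax7a rests on 12 counts, against 16 to 24 in the other 5 libraries. In mutant replicate 2, where csf1ra was highest, none of the 5 pigment-cell genes was highest. How many of all genes were lowest in mutant replicate 1 was not counted. The part of pigment cells in the spread of csf1ra was not tested. The paralog csf1rb had 11 to 21 counts per library (log2 fold change −0.19, edgeR adjusted p = 0.816).

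**Figure D2:**
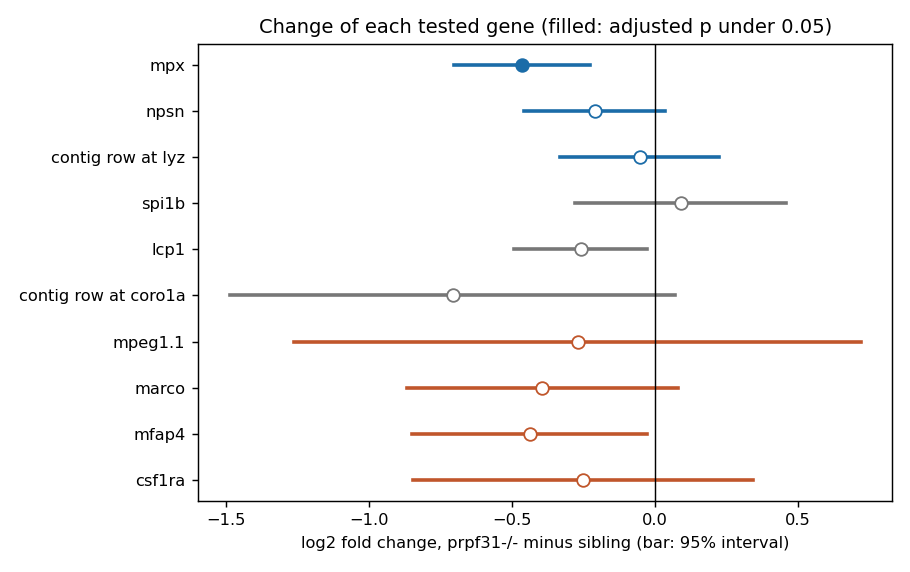
Log2 fold change of each tested gene, prpf31-/- minus sibling, with its 95% interval from edgeR (blue neutrophil, grey shared, orange macrophage; filled where the adjusted p was under 0.05). Only mpx is filled, at −0.46; the intervals of lcp1 and mfap4 also end below 0, at −0.03 for both, but neither passed over all genes.

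The precision differed between genes. In the plot of fold changes, mpx and npsn had standard errors of 0.107 and 0.111 on the log2 scale, while that of mpeg1.1 was 0.444. Among the macrophage genes mfap4, at −0.44 close to mpx, had a standard error of 0.185, and csf1ra, with more counts than mfap4, one of 0.267.

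Levels of different genes were compared per gene length, in the deposited FPKM (fragments per kilobase of gene and per 1000000 of a total set for each library). In siblings the order of the named rows was npsn (33.5 ± 1.58, SD, n = 3), mpx (15.8 ± 1.45), lcp1 (11.3 ± 1.23), mfap4 (4.63 ± 0.313), csf1ra (1.97 to 2.51), marco (1.88 ± 0.346), spi1b (1.87 ± 0.0922), mpeg1.1 (0.278 ± 0.123) and lyz, with coro1a at 0. The neighbours csf1ra and marco, marco and spi1b, and mpeg1.1 and lyz overlapped between sibling libraries, so their order is not settled. The alternate-contig entry at lyz had 137 ± 5.88 FPKM in siblings and 132 ± 26.1 FPKM in mutants, above all named rows. In mutants the first 4 places were unchanged, at 29.0 for npsn, 11.5 for mpx, 9.44 for lcp1 and 3.43 for mfap4. By mean, spi1b (1.99) took the fifth place before csf1ra (1.85) and marco (1.44). The mutant libraries of csf1ra (1.15, 2.66 and 1.74) spanned those of spi1b (1.94 to 2.08), so this order is not settled either.

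**Figure D3:**
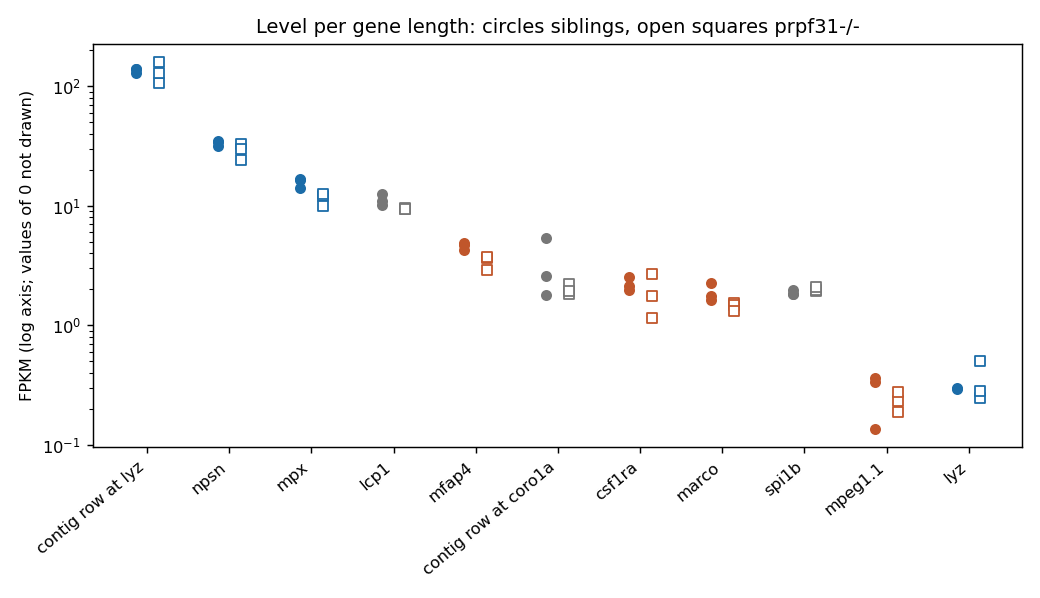
Level per gene length (deposited FPKM, log axis) in sibling libraries (filled circles) and prpf31-/- libraries (open squares), ordered by the sibling mean; a library at 0 is not drawn, and coro1a, at 0 in every library, is left out. The contig row at lyz, npsn and mpx lead, and mpeg1.1 (0.278 FPKM in siblings) and the lyz row trail.

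Libraries of a group differed in how often they were at 1 end. Sibling replicate 1 was the highest sibling for 6 of the 8 tested genes, and sibling replicate 2 the lowest for 5. Mutant replicate 2 was the lowest mutant for 4 of 8 and mutant replicate 3 the highest for 4. Mutant replicate 1 was the highest mutant for 3 and the lowest for 3. How often each library was at either end over all tested genes was not counted. Mutant replicate 2 stood apart in the keratin gene krt4, with 8338 CPM against 4606 to 5470 CPM in the other 5 libraries. It did not in the epidermal gene tp63 (14.9 CPM against 14.4 to 17.6 CPM). The alternate-contig entry at krt5 was lowest there, at 160.2 CPM. The part of tissue makeup in the members' values was not tested.

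Of the other tested neutrophil genes, 12 had a log2 fold change below 0 and 9 above. Over all tested genes 50.7% were below 0. Of 26 rows in the deposited files, 21 were tested, 1 was lower, none was higher and 20 did not pass. The 1 call among 21 stands beside 4.49% of all tested genes called lower and 5.58% called higher. It was not tested for excess. The median log2 fold change of the 21 was −0.06 (all genes −0.005). The gene that fell was il6r, a receptor chain for interleukin 6, with 179, 182 and 201 counts in siblings and 113, 122 and 109 in mutants (log2 fold change −0.68, edgeR adjusted p = 0.0232). Its call was lost without any 1 of the sibling libraries and without mutant replicate 3 (adjusted p up to 0.114 over all alternatives). The metalloprotease gene mmp13a had 2 rows, of which ENSDARG00000012395 had a log2 fold change of −0.66 (edgeR adjusted p = 0.0792) and ENSDARG00000114451 of −0.16 (0.673). The remaining genes with the smallest adjusted p, adam8a (0.36, 0.0780) and illr4 (0.75, 0.136), a protease and a lectin-like receptor gene, had positive values. The genes cyba, ncf1 and cybb of the NADPH oxidase, which feeds superoxide to myeloperoxidase, did not pass either: the log2 fold change was −0.33 for cyba, −0.26 for ncf1 and −0.05 for cybb (edgeR adjusted p = 0.255, 0.343 and 0.856).

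Of 33 other macrophage rows 16 were tested, 2 were lower, none was higher and 14 did not pass, with a median of −0.09. The 2 calls among 16 stand beside 4.49% of all tested genes called lower, and were not tested for excess. Both genes that fell were cathepsin S genes, which encode lysosomal proteases of phagocytes. The gene ctss2.1 had 756, 912 and 880 counts in siblings and 177, 104 and 140 in mutants, and ctss2.2 had 52, 82 and 88 against 13, 6 and 4. Their log2 fold changes were −2.56 (edgeR adjusted p = 3.9e-05) and −3.22 (0.00171), both further from 0 than those of the 8 tested members. The microglia and macrophage receptor gene p2ry12 had −0.73 (edgeR adjusted p = 0.261).

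All 3 called genes of these lists (il6r, ctss2.1 and ctss2.2) lie on chromosome 16, the chromosome of prpf31, with starts 9.91, 2.57 and 2.57 Mb from that of prpf31. The tested genes there that were not called were ptpn6, apoeb and csf3r, with starts 0.362, 8.12 and 29.0 Mb away. Their log2 fold changes were −0.41, −0.03 and 0.02 (edgeR adjusted p = 0.304, 0.895 and 0.990). Over the 4 lists together, 3 of 6 tested genes on chromosome 16 were called and 0 of 77 elsewhere, although DESeq2 called notch1a on chromosome 21 and the MFAP4 row on chromosome 1. Over all tested genes 23.6% were called on chromosome 16 and 9.50% elsewhere. Genotype at prpf31 and inherited sequence around it cannot be told apart in this cross. No member lies on chromosome 16.

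**Figure D4:**
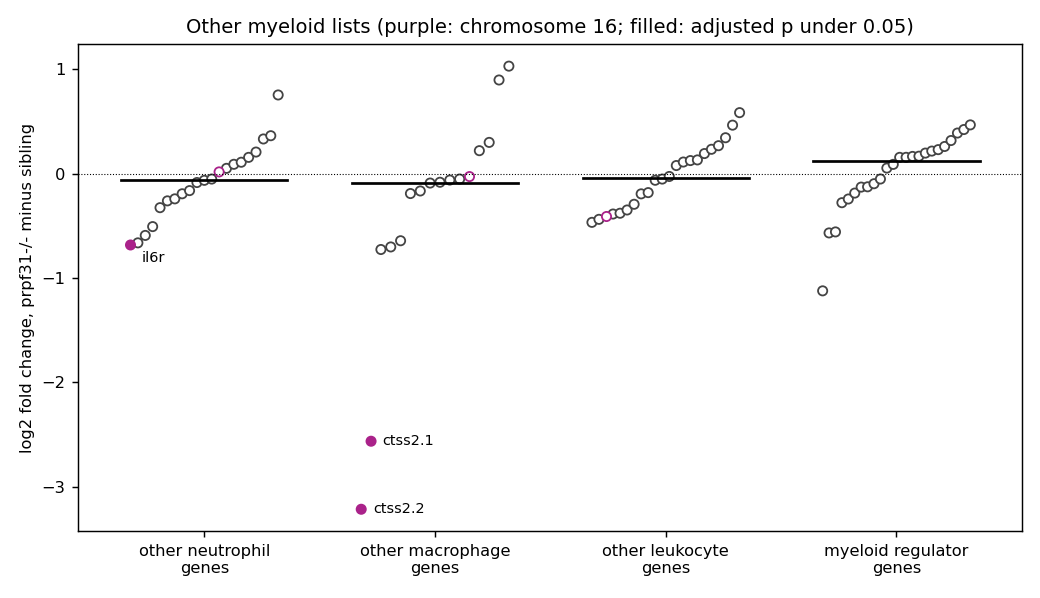
Log2 fold change (prpf31-/- minus sibling) of each tested gene in 4 further lists, sorted within each list, with the list's median as a black bar; purple marks genes on chromosome 16 and filled points an adjusted p under 0.05. The 3 filled points, il6r, ctss2.1 and ctss2.2, are all purple and the medians lie between −0.09 and 0.12.

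Of 22 tested genes of leukocytes in general, 3 were lower at an unadjusted p under 0.05, where 12.1% of all tested genes were. Another 3 were higher, and the share of all tested genes higher at that level was not counted. None of the 22 passed with edgeR or with DESeq2, and their median was −0.04. Those with the smallest edgeR adjusted p were cxcr4b, a chemokine receptor that holds neutrophils and progenitors in hematopoietic tissue (−0.35, 0.0865), samsn1a (0.46, 0.0953), the interleukin 10 receptor chain il10rb (−0.29, 0.120) and arhgdig (0.19, 0.137). The leukocyte phosphatase CD45, encoded by ptprc, stood at −0.05 (edgeR adjusted p = 0.914). Levels within the further lists differed widely: in siblings ptprc averaged 4.82 CPM, cotl1 494 CPM and arhgdig 198 CPM. Among the other neutrophil genes padi2 averaged 250 CPM, and among the other macrophage genes apoeb averaged 2195 CPM. Which cells of the tail supplied these reads was not tested. The medians and calls of the lists therefore do not isolate leukocyte RNA.

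None of 24 tested regulators upstream of neutrophils and macrophages passed with edgeR, and the median was 0.12. At an unadjusted p under 0.05, 3 were higher, and the share of all tested genes higher at that level was not counted. The myeloid factor gene cebpa had 1184, 1204 and 1154 counts in siblings and 1061, 1064 and 1133 in mutants (log2 fold change −0.10, edgeR adjusted p = 0.493). The gene irf8, whose product directs progenitors to macrophages rather than neutrophils, had 92, 72 and 99 counts in siblings and 82, 57 and 73 in mutants (−0.28, adjusted p = 0.522). The spi1b paralog spi1a stood at −0.13 (adjusted p = 0.751). The positive values with the smallest adjusted p were those of the Notch receptor gene notch1a (0.39, 0.0608), which was the 1 regulator DESeq2 called (adjusted p = 0.0122), of cebpb (0.26, 0.0910) and of klf6a (0.16, 0.186), and csf3b, which encodes a granulocyte colony stimulating factor, stood at −1.12 (0.207).

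Markers of other cells were read from the same libraries. Over all tested genes 4.49% were called lower and 5.58% higher, and 15.4% did not overlap with mutants lower. No excess over these shares was tested for the markers. Of 5 lymphoid markers, lck and cd4-1 were at 0 in all libraries, rag1 had 5 counts or fewer and pax5 10 or fewer. The recombinase gene rag2 had 39, 24 and 28 counts in siblings and 17, 21 and 20 in mutants, which did not overlap and did not pass (log2 fold change −0.62, edgeR adjusted p = 0.257), and the summed level of the 5 lymphoid markers was 1.53 to 2.23 CPM in siblings and 1.08 to 1.53 CPM in mutants. The mast cell gene cpa5 had 5.80 to 7.55 CPM in siblings and 6.22 to 7.09 CPM in mutants. Of 5 tested erythroid markers 2, the globin genes hbbe1.1 and hbae3, were lower, and 3 did not pass (log2 fold change −0.20 for slc4a1a, 0.26 for gata1a and 0.60 for epor). The summed level of the 6 listed, made up mostly of the globin genes, was 1641 to 1991 CPM in siblings and 1075 to 1326 CPM in mutants. Of endothelial markers 1 of 4, pecam1, was lower, with sums of 157 to 173 CPM in siblings and 152 to 157 CPM in mutants. Outside blood and vessels, 1 of 3 neural markers, sox3, was lower (edgeR adjusted p = 0.0291). Sums of the 3 neural markers were 505 to 620 CPM in siblings and 466 to 491 CPM in mutants. Of 2 pronephros markers, cdh17 was higher (log2 fold change 0.32, edgeR adjusted p = 0.0270) and slc20a1a did not pass (−0.34, adjusted p = 0.806). The gene cdh17 lies on chromosome 16, where genotype at prpf31 and inherited sequence around it cannot be told apart. None of 3 muscle markers passed, with sums of 10572 to 10855 CPM in siblings and 9600 to 9846 CPM in mutants. None of the 2 tested thrombocyte, 2 tested notochord and 3 tested epidermis markers passed either. Of 2 markers of tissue outside the tail, the crystallin gene crygm2d1 had 49, 0 and 112 counts in siblings and 144, 5 and 15 in mutants. It was highest in mutant replicate 1 and did not pass (log2 fold change 0.13, edgeR adjusted p = 0.964). The other, rho, had 4 counts or fewer per library. The part of all these markers in the result for mpx was not tested.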

How the data were processed

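Libraries were made by the study with the NEBNext Ultra kit from tail RNA. The submitters' processing notes name CASAVA 1.8, HISAT2 2.0.5, featureCounts 1.5.0-p3 and the build GRCz11. The annotation release is not given in the sources used here. The authors deposited whole-number counts and FPKM per gene for each library. The FPKM equal counts divided by gene length and 1 total per library, which was 0.935 to 1.045 times the summed counts.

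The test was that of edgeR 4.0.16 under R 4.3.3 on the counts (filterByExpr, TMM, glmQLFit and glmQLFTest, mutants against siblings, no other term). P-values were adjusted by Benjamini-Hochberg over all 21876 genes, and an adjusted p under 0.05 was a call. CPM used TMM-scaled totals. The biological coefficient of variation was 15.5%. Intervals of 95% come from the same fit. The procedure was also run on simulated counts, whose changes were larger than that of any tested member. That run does not show how well changes as small as those of the members are found. The members and lists were chosen with earlier results of these data known. Named were all 10 members, up to 4 genes of each further list with the smallest adjusted p, and paralogs of members; other genes named were chosen after their values were seen.

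Alternatives were DESeq2 1.42.0, RLE or upper-quartile factors, no filter, a minimum of 50 counts (3 libraries), a block for the replicate number, limma 3.58.1 on log2(FPKM + 1) and log2(FPKM + 0.1) with FPKM of 1 in 3 libraries, log2(FPKM + 1) unfiltered, a minimum size of 1 on the log2 scale, and leaving out each library. Adding alternate-contig entries to the gene at their place was chosen after seeing the data. Promoter and protein sequences were not used here. The counts per list include genes whose own values are not reported here.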

Additional observations from a re-analysis of the deposited data

How the results depend on the processing

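Of 16 alternative fits, 12 kept the call of mpx, which a minimum size of 1 on the log2 scale also ended, and its log2 fold change ran from −0.54 to −0.37 (adjusted p 0.00321 to 0.102). Genes called went from 2203 to 1422 with limma on unfiltered log2(FPKM + 1), to 612 with that minimum size, and to 932 (without mutant replicate 3) to 2157 (without mutant replicate 1) without 1 library; they were 1044 without sibling replicate 1 and 1121 without sibling replicate 2. Neutrophil members called went from 1 to 0 with unfiltered limma, to 0 with the minimum size and to between 0 and 1 without 1 library, and the count for other neutrophil genes (il6r) moved in the same way, 0, 0 and between 0 and 1. Other macrophage genes called went from 2 to 4 without mutant replicate 1, which added 2 MFAP4 rows (range without 1 library 2 to 4). Myeloid regulators called went from 0 to 1, notch1a, with DESeq2 and to 1 without the filter (0 to 1 without 1 library). No macrophage or shared member was called under any alternative. The sign turned for the alternate-contig entry at lyz without mutant replicate 2 (range without 1 library −0.2107 to 0.0794) and for csf1rb without mutant replicate 3 (−0.5081 to 0.0066). With the replicate number as a block 1153 genes were called, 0 neutrophil members (mpx −0.47, adjusted p = 0.0679) and 0 other neutrophil genes, and the counts for the other lists did not change. Nothing says that a number marks a shared clutch, the deviations of same-numbered libraries correlated at −0.07, −0.12 and −0.04, and no library correlated best with its own number. The causes were not tested. The median of all genes stayed within 0.05 of 0 under every scaling. Low or absent counts left the lyz and coro1a rows untested, while the alternate-contig entries at their places had enough counts for a test. Among tested members, mpeg1.1 had the widest interval.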

Other observations

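A few myeloid genes too low for the test had libraries that stood apart. The invariant chain genes of antigen presentation were highest in mutant replicate 1: cd74a had 10, 1 and 2 counts in siblings and 65, 4 and 6 in mutants, and cd74b had 7, 7 and 6 in siblings and 42, 6 and 10 in mutants. The macrophage chemokine receptor gene cxcr3.2, which lies on chromosome 16, had 6, 5 and 7 counts in siblings and 0 in each mutant library. It was called where no filter on low counts was used (edgeR adjusted p = 0.0292).

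Rows near 0 beside an entry on an alternate contig were also met outside the members. The tetraspanin gene cd63 had 1 count in all, while the entry at its place had 401 to 573 counts per library (log2 fold change −0.10). The heme synthesis gene alas2 had at most 3 counts in a library, and the entry at its place 460, 471 and 506 counts in siblings and 201, 407 and 410 in mutants.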
